A study of Mus musculus with 6 samples.

Results

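The SOX genes encode transcription factors that share an HMG box, a DNA-binding domain that bends the helix in the minor groove. Sequence similarity sorts them into lettered groups, and 9 genes of the groups SoxB1 (Sox2), SoxC (Sox4, Sox11, Sox12), SoxD (Sox5, Sox6) and SoxE (Sox8, Sox9, Sox10) are described here. They were chosen as named genes and matched by GENCODE M21 symbol to Ensembl identifiers, which found 9 of 9 among the 49315 genes of the count files. SOX proteins set lineage choices in the embryo. SoxE and SoxD factors drive cartilage together, SOX10 acts in neural crest and glia, SoxC factors act in mesenchyme and immature neurons, and SOX2 acts in pluripotent and neural progenitor cells. Several SOX proteins also bind beta-catenin or compete with its TCF/LEF partners, and casein kinase 1 alpha (CK1-alpha) primes beta-catenin for degradation.

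Poly(A)-selected RNA of 6 mouse embryo fibroblast lines was sequenced. The cells were at passage 4 in DMEM with 10% serum, without treatment. In the SG group, the lines SG1, SG2 and SG3 were p53-/- and homozygous for the knock-in allele MDMX-SG, with the substitutions W201S and W202G in MDMX, the p53 inhibitor that also binds CK1-alpha. In the WT group, the lines WT3, WT9 and WT11 were p53-/- with wild-type MDMX. All lines were of the C57BL/6 strain, all lacked p53, and each was derived from 1 embryo, so n is 3 embryos a group. The p-values set the difference between the groups against the spread between these lines.

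Libraries held 49317925 to 65457242 counts. All 10 listed fibroblast markers passed the count filter. They summed to 15020 to 17930 CPM (counts scaled to a common library size) in SG and 16580 to 17060 CPM in WT lines, most of it Col1a1, Col1a2 and Vim. Of the 10, 8 had a log2 fold change below 0 and 2 above. For 4 of them, Thy1, Vim, Postn and Pdgfrb, every SG line was below every WT line, beside 11.2% of all tested genes. For 0 of them every SG line was above every WT line, beside 10%. Only Thy1 was called (309, 264 and 267 CPM in SG lines, against 470, 438 and 472 CPM in WT lines). The adjusted p of Thy1 was 0.00802 by edgeR's test, and 0.0629 without SG2. By the same test with all lines it was 0.0701 for Vim, 0.0704 for Postn and 0.174 for Pdgfrb. Each group held 1 line that expressed Xist, which coats the inactive X: SG1 with 399 CPM and WT9 with 343 CPM, the other 4 lines having at most 0.7 CPM. Across the genome 306 of 16068 tested genes (1.9%) passed an adjusted p of 0.05 in edgeR's quasi-likelihood test of SG against WT.

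None of the 9 SOX genes was among them. By edgeR's test 0 of 9 were higher in SG, where 0.809% of all tested genes were, and 0 of 9 were lower, where 1.1% were. All 9 passed the filter on low counts. At an unadjusted p under 0.05 there were 3 (Sox2, Sox5 and Sox4), against 15.5% of all tested genes. The median log2 fold change of the 9 was 0.17, with 7 above 0 and 2 below, beside a median of 0.00 over all tested genes. The largest differences lay in scarce transcripts, Sox2 (log2 fold change -2.89) and Sox5 (1.36), and the 4 abundant ones had log2 fold changes between -0.08 and 0.19. For 5 of the 9 (3 higher and 2 lower in SG) the 3 SG lines did not overlap the 3 WT lines, beside a smaller share, 21.2%, of all tested genes. In bulk RNA, fewer cells of a type and less RNA per cell cannot be told apart.

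**Figure D1:**
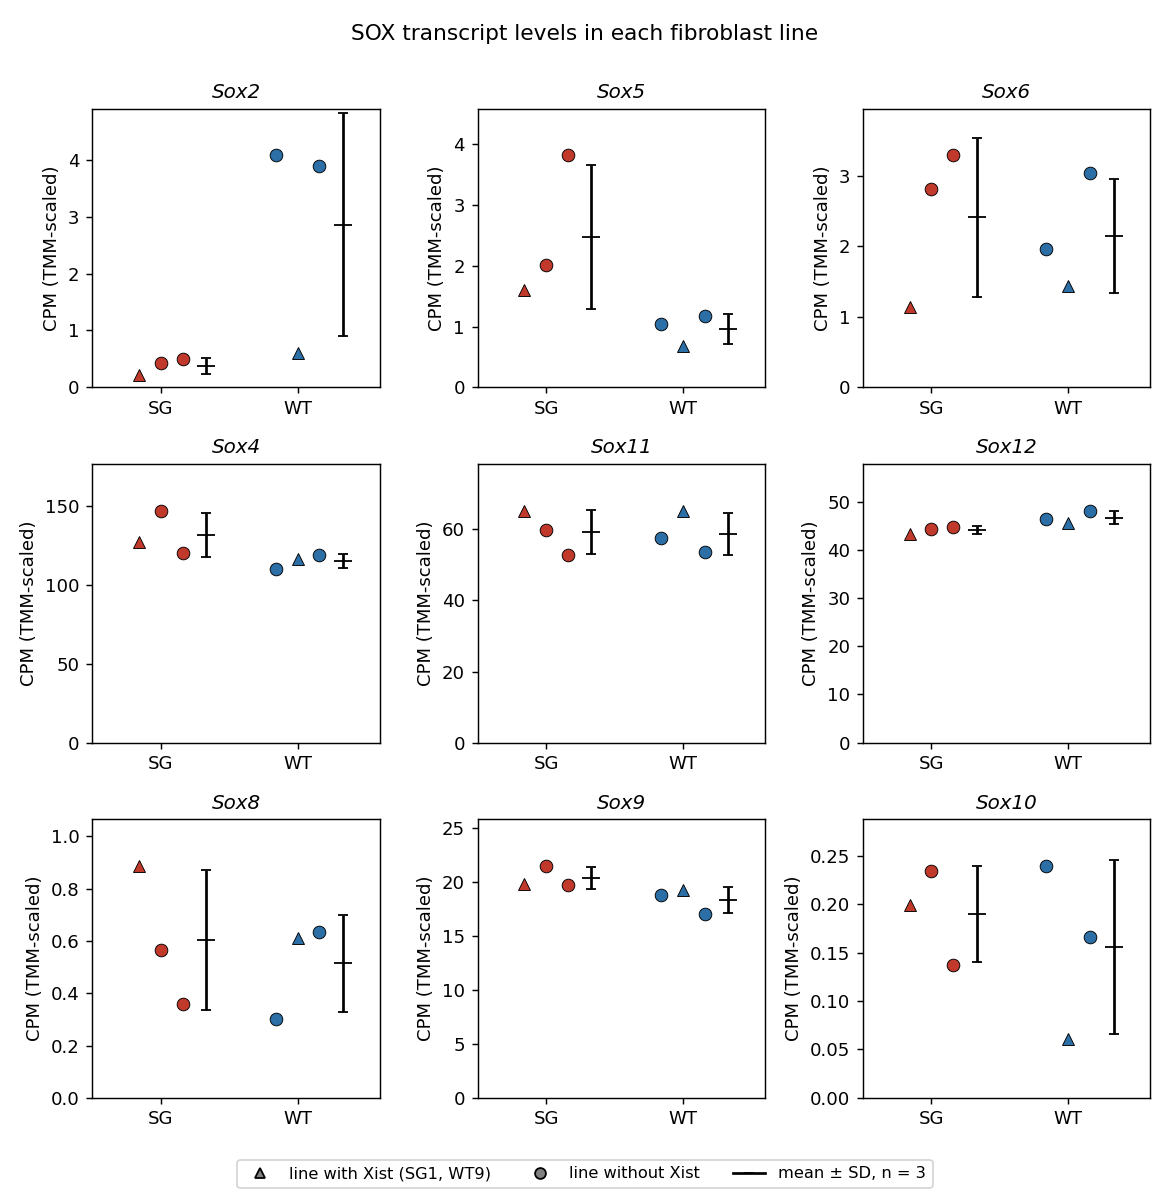
TMM-scaled CPM (linear axes from 0) of the 9 SOX genes in 3 SG lines (red) and 3 WT lines (blue), with triangles for the lines with Xist and bars for the mean ± SD. Sox2 reached 4.08 and 3.9 CPM in WT3 and WT11 only, and Sox5 was above every WT line in all 3 SG lines.

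Levels were first set in order per kilobase of exon, since the exon lengths of these genes run from 2057 (Sox2) to 14832 (Sox6) bases. Sox4 averaged 25.7 ± 2.7 CPM per kb over the 6 lines, Sox12 10.2 ± 0.39, Sox11 7.1 ± 0.66 and Sox9 4.68 ± 0.36 (SD, n = 6), and the ranges of these 4 did not overlap. Sox2 followed at 0.787 ± 0.9 CPM per kb, with a range of 0.106 to 1.98 that overlapped that of Sox8. Sox8 (0.179 ± 0.068), Sox6 (0.154 ± 0.06), Sox5 (0.12 ± 0.078) and Sox10 (0.0638 ± 0.025) overlapped each with the next, so their order was not fixed by these lines. The 3 SoxC genes held 88.7% to 90.8% of the counts of the 9 genes in SG lines and 89.0% to 90.9% in WT lines.

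**Figure D2:**
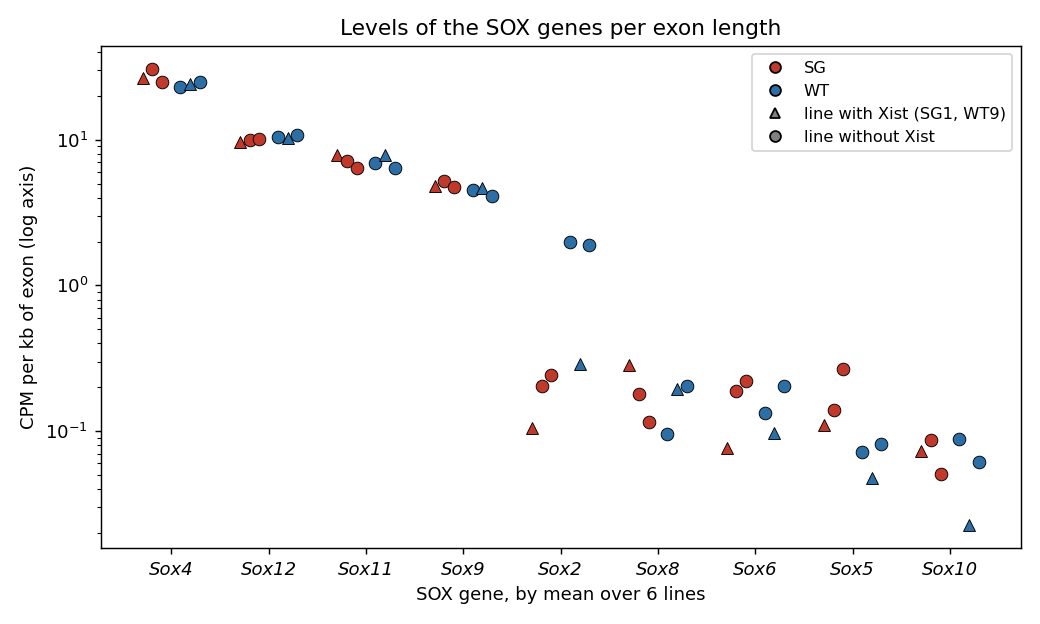
Level of each SOX gene in CPM per kb of exon (log axis) in every line, SG in red left of WT in blue, ordered by the mean of all 6 lines. Sox4, Sox12, Sox11 and Sox9 lay between 4.12 and 30.7 CPM per kb, and the other 5 genes between 0.0225 and 1.98.

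Among the SoxC genes, Sox4 (chromosome 13, 28948919 to 28953713, GRCm38) encodes a factor of progenitor survival in mesenchyme and of epithelial to mesenchymal transition. It stood at 127, 147 and 120 CPM in SG1, SG2 and SG3, against 110, 116 and 119 CPM in WT3, WT9 and WT11. Every SG line was above every WT line, SG3 only just above WT11. The log2 fold change was 0.19 (SE 0.07, 95% interval 0.02 to 0.36) with an adjusted p of 0.266. Of its 4795 exon bases, 2616 (54.6%) are shared with the gene Gm26735 on the opposite strand, which was counted at 0 in all lines. Whether reads there were dropped or given to Sox4 was not given in the sources used here. Over the 2179 unshared bases alone the mean would be 56.7 CPM per kb, so its level per length is uncertain, while its rank above Sox12 is the same.

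Sox11 (chromosome 12, 27334264 to 27342574), a partner of Sox4 in neurons and skeleton, was at 65.3, 59.7 and 52.9 CPM in the SG lines, against 57.5, 65.2 and 53.6 CPM in the WT lines. The groups overlapped fully, and SG1 and WT9, the lines with Xist, were the highest of their group at nearly the same value. The log2 fold change was 0.01 (SE 0.09, 95% interval -0.20 to 0.23, adjusted p = 0.968). Sox12 (chromosome 2, 152393611 to 152398063), the weakest activator of the group, was at 43.3, 44.3 and 44.9 CPM in SG lines, against 46.5, 45.6 and 48.2 CPM in WT lines. All SG lines were below all WT lines by a small margin in the tightest of the 9 genes. Its SD on the log2 scale was 0.03 in SG and 0.04 in WT. The log2 fold change was -0.08 (SE 0.04, 95% interval -0.17 to 0.00, adjusted p = 0.347).

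Among the SoxE genes, Sox9 (chromosome 11, 112782224 to 112787760), the master factor of cartilage that also marks many mesenchymal progenitors, was at 19.8, 21.5 and 19.7 CPM in SG lines, against 18.8, 19.3 and 17.02 CPM in WT lines. The SG lines were all above the WT lines, with SG3 only just above WT9. The log2 fold change was 0.15 (SE 0.07, 95% interval -0.01 to 0.30, adjusted p = 0.342). Sox8 (chromosome 17, 25565892 to 25570686), which shares functions with Sox9 in testis and with Sox10 in glia, had 49, 36 and 21 counts in SG lines, against 15, 40 and 38 counts in WT lines. That was 0.888, 0.564 and 0.359 CPM in SG and 0.3, 0.611 and 0.633 CPM in WT, and the groups overlapped (log2 fold change 0.21, SE 0.40, adjusted p = 0.856). Sox10 (chromosome 15, 79154913 to 79164490), the factor of neural crest derivatives, Schwann cells and melanocytes, was near the limit of detection. It had 11, 15 and 8 counts in SG lines, against 12, 4 and 10 counts in WT lines (log2 fold change 0.34, SE 0.49, 95% interval -0.80 to 1.48, adjusted p = 0.802). The groups overlapped, WT9 was the lowest line and SG2 was close to WT3.

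Sox2 (chromosome 3, 34650405 to 34652461), the pluripotency and neural progenitor factor, showed the widest difference of the 9 genes. On the log2 scale its spread was the widest of the 9 among WT lines, though not among SG lines. It had 12, 27 and 29 counts in SG1, SG2 and SG3, against 204, 39 and 234 counts in WT3, WT9 and WT11, which is 0.217, 0.423 and 0.496 CPM in SG and 4.08, 0.596 and 3.9 CPM in WT. WT3 and WT11 were high, WT9 lay just above the SG lines, and the groups did not overlap. The mean was 0.379 ± 0.145 CPM in SG and 2.86 ± 1.96 CPM in WT (SD, n = 3 each), a log2 fold change of -2.89 (SE 0.70, 95% interval -4.52 to -1.26) with an adjusted p of 0.0897. The SD of log2 CPM among WT lines was 1.54, larger than that of 99.9% of tested genes.

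Other fits called up to 2 of the 9 genes. The count was 0 with unscaled library totals (1.79% of all genes called), RLE (1.89%) or upper-quartile factors (1.88%) and a robust prior (1.46%). It was also 0 without SG1 (3.53%), SG2 (0.0184%), SG3 (1.35%), WT3 (0.146%) or WT11 (0.177%). It was 1, Sox2, with Xist as a covariate (2.62%), without WT9 (2.82%) and without SG1 and WT9 together (4.36%). It was 2, Sox2 and Sox5, without a count filter (3.33% of 28807 genes) and in DESeq2 (5.97% of 15959 genes).

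The call for Sox2 turned on the fit and on WT9. The adjusted p was 0.00526 without WT9 and 0.00104 without SG1 and WT9, 0.0136 with Xist as a covariate, 0.00204 without a count filter and 0.0122 in DESeq2. It was between 0.149 and 0.278 without any other single line. Among the lines without Xist, SG2 and SG3 averaged 0.46 CPM against 3.99 CPM in WT3 and WT11, 8.68-fold lower. Between the lines with Xist, SG1 was at 0.217 CPM and WT9 at 0.596 CPM, 2.74-fold lower. Sox2 lies within the bounds of the long noncoding gene Sox2ot and shares no exon base with another gene, and Sox2ot had 0, 3 and 0 counts in SG lines and 0, 2 and 6 counts in WT lines. Of the other genes within 1 Mb of Sox2, 7 were tested and 0 were called, beside 1.9% of all tested genes.

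Among the SoxD genes, which lack an activation domain of their own and act with SOX9 in cartilage, Sox5 (chromosome 6, 143828425 to 144781977) had 88, 128 and 223 counts in SG lines, against 52, 45 and 70 counts in WT lines. That was 1.59, 2.01 and 3.82 CPM in SG and 1.04, 0.688 and 1.17 CPM in WT. All SG lines were above all WT lines, with SG3 highest by a wide margin. The log2 fold change was 1.36 (SE 0.36, 95% interval 0.53 to 2.20, adjusted p = 0.112). It passed in DESeq2 (adjusted p = 0.00287) and without a count filter (adjusted p = 0.00867), and was 0.91 without SG3 (adjusted p = 0.158). The SG to WT ratio was 2.32-fold between the lines with Xist and 2.64-fold among the others. Sox6 (chromosome 7, 115470872 to 116038796), the close relative of Sox5, had 63, 179 and 192 counts in SG lines, against 98, 94 and 182 counts in WT lines. It did not share the order of Sox5, since SG1 was the lowest of all 6 lines and WT11 lay between SG2 and SG3 (log2 fold change 0.17, SE 0.41, 95% interval -0.77 to 1.12, adjusted p = 0.882). Sox5os1, antisense to Sox5 and sharing 1330 of its 14376 exon bases, had no count in any line, nor had 4 further antisense transcripts of Sox5 or that of Sox6.

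**Figure D3:**
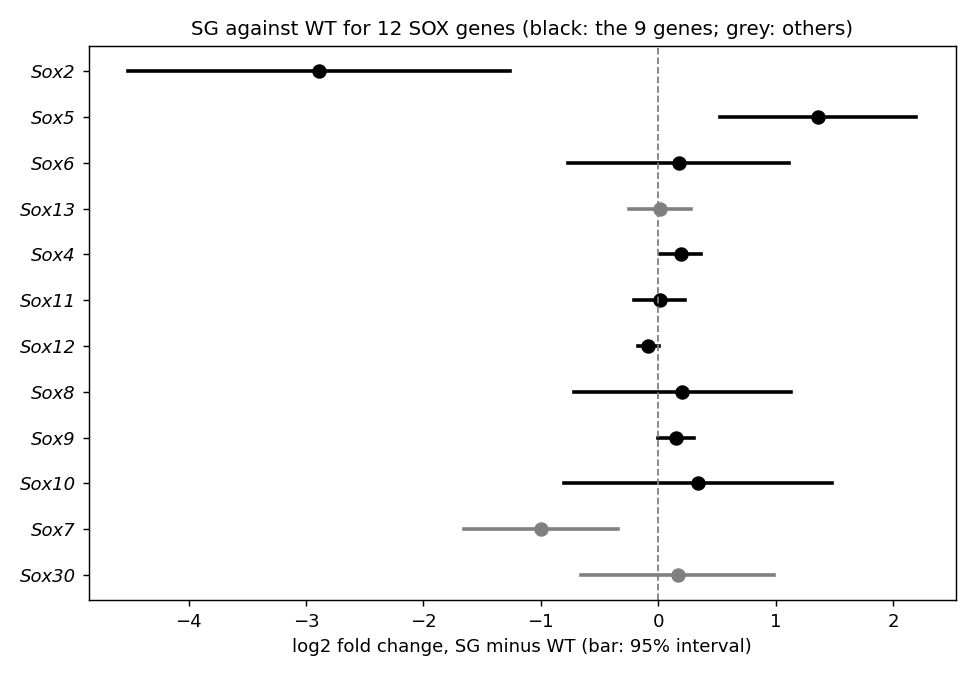
Log2 fold change, SG minus WT, with its unadjusted 95% interval for the 9 SOX genes (black) and the 3 other SOX genes that passed the count filter (grey). The interval of Sox2 spans -4.52 to -1.26 and that of Sox5 0.53 to 2.20. After adjustment over all genes 0 of the 12 passed the threshold, beside 1.9% of all tested genes.

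The stretches before the start sites are shown for the scarce genes that differed most between lines and for the abundant SoxC genes. These are the 250 bases before the RefSeq start (GRCm38.p6), 5′ to 3′ on the gene's strand. The table of RefSeq windows used here matched 7 of the 9 genes, all but Sox9 and Sox10. Capitals mark matches, on either strand, to the CCAAT box (CCAAT), the GC box (GGGCGG), the TATA box (TATAAA), a SOX core (ACAAT) or the TCF/LEF word CTTTGAT. Different motifs share no position in these windows, while 2 GC boxes in the Sox12 window overlap each other.
Sox2 (chr3:34649745-34649994, plus strand): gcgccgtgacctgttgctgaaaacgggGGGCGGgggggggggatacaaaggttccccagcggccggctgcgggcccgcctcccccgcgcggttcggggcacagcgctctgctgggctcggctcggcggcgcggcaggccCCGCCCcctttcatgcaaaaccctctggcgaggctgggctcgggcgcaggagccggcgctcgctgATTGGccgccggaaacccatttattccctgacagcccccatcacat
Sox5 (chr6:143947107-143947356, minus strand): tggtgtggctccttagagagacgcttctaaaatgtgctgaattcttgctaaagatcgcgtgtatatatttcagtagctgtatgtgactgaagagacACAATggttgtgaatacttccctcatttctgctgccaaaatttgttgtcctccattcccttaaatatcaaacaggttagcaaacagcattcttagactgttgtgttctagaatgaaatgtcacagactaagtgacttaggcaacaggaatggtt
Sox4 (chr13:28953700-28953949, minus strand): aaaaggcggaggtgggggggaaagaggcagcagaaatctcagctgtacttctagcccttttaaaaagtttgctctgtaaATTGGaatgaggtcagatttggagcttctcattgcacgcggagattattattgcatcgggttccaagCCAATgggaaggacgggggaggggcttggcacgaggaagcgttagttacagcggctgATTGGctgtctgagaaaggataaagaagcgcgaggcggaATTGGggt
Sox11 (chr12:27342719-27342968, minus strand): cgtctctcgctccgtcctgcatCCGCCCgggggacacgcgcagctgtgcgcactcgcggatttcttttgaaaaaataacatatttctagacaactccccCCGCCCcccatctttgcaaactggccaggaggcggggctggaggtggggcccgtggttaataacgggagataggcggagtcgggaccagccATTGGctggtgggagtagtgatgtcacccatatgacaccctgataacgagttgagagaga
Sox12 (chr2:152398047-152398296, minus strand): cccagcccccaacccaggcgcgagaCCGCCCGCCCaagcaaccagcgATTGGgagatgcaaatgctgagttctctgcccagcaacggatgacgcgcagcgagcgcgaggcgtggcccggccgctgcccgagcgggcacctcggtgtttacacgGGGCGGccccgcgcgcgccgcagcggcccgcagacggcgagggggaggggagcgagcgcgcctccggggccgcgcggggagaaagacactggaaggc

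The Sox4 window holds 4 CCAAT boxes, and those of Sox2, Sox11 and Sox12 hold 1 each, where 33.8% of 32851 windows of this length hold at least 1. The Sox2, Sox11 and Sox12 windows also hold 2, 2 and 3 GC boxes, found in 32.7% of windows. Sox5 differs, with no CCAAT or GC box and 1 SOX core, a word found in 27.7% of windows. The Sox5 window is poor in CpG, with 3 CpG dinucleotides and 39.6% G and C, while Sox2 has 27 and 72.0% and Sox12 35 and 74.4%, beside a median of 6 over all windows. No TATA box (12.4% of windows) and no TCF/LEF word (3.21%) stands in the 5 windows. The RefSeq start of Sox5 lies well inside the gene as counted, so other starts of that gene are not shown, and that of Sox2 lies 410 bases before the counted gene.

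Of 11 other SOX genes, 3 passed the count filter and 0 were called, beside 1.9% of all tested genes. Sox7, a SoxF gene of endothelium, was at 0.435, 0.517 and 0.308 CPM in SG lines, against 1.04, 0.642 and 0.866 CPM in WT lines, without overlap (95% interval of the log2 fold change -1.65 to -0.34, adjusted p = 0.133). The summed level of 7 endothelial markers ranged from 54.7 to 73.9 CPM in SG and from 43.0 to 57.5 CPM in WT lines, nearly all of it Kdr, with Pecam1 at most 0.172 CPM and Cdh5 at most 0.376 CPM in any line, and its part in Sox7 was not tested. Sox13, the remaining SoxD gene, was at 3.6 to 3.82 CPM in SG and 3.35 to 4.06 CPM in the WT group (log2 fold change 0.02, SE 0.11, adjusted p = 0.962). Sox30 was at 0.308 to 0.329 CPM in SG and 0.15 to 0.36 CPM in WT (adjusted p = 0.87). Sox14, Sox17 and Sry had 0 counts in all lines, which allows a level of up to 0.0608 CPM in the smallest library (3 counts, counting error only). Sox1, Sox3, Sox15, Sox18 and Sox21 had between 0 and 8 counts a line.

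Over 6 lists of genes that SOX proteins are known to control or work with, 4 of 54 tested genes (7.41%) were called, 2 higher and 2 lower in SG, beside 1.9% of all tested genes. The lists were chosen with earlier results of these lines known. Of 20 cartilage genes linked to SOX9, SOX5 and SOX6, 12 were tested, 1 rose (0.809% of all tested genes did) and 0 fell (1.1%) in SG, with a median log2 fold change of 0.24, beside 0.00 over all tested genes. The gene that rose, Col11a1, encodes a chain of the thin collagen fibrils of cartilage that fibroblasts also make. It was at 277, 294 and 367 CPM in SG lines, against 168, 202 and 158 CPM in WT lines (log2 fold change 0.83, SE 0.12, adjusted p = 0.0241). Col2a1 and Acan, the defining collagen and proteoglycan of cartilage, and the fibrillar collagen gene Col27a1 were looked at after their values were seen. Col2a1 was at 20.8, 48.03 and 126 CPM in SG lines, against 4.14, 24.7 and 19.2 CPM in WT lines, and WT9 was above SG1 (log2 fold change 2.01, SE 0.74, adjusted p = 0.242). Acan was at 11.8, 18.0 and 13.3 CPM in SG, against 3.6, 7.49 and 7.81 CPM in WT, without overlap (log2 fold change 1.18, SE 0.28, adjusted p = 0.0855). Col27a1 ran the other way, at 10.8, 5.86 and 5.97 CPM in SG lines, against 12.2, 13.3 and 12.8 CPM in WT lines, also without overlap (log2 fold change -0.77, SE 0.22, adjusted p = 0.144). Matn1, Snorc and Ucma, which mark mature or growth plate cartilage, had no count in any line, and the summed level of the 20 genes was 374 to 575 CPM in SG and 238 to 297 CPM in WT, most of it Col11a1.

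Of 15 cofactors of SOX9, 14 were tested and 0 were called, beside 1.9% of all tested genes. Their median log2 fold change was 0.07, with 11 above 0 and 3 below. Without overlap, 6 were higher and 1 lower in SG, beside 10% and 11.2% of all tested genes. By edgeR's test Zfp219 had the smallest adjusted p (0.0897, log2 fold change 0.21). Pax1 had the largest log2 fold change (0.96, adjusted p = 0.246). The most abundant cofactor genes were Ctnnb1, which encodes beta-catenin, at 670 to 680.1 CPM in SG and 685 to 690 CPM in the WT group (log2 fold change -0.02, SE 0.03, adjusted p = 0.77), and the acetyltransferase gene Ep300 at 102 to 106 CPM in SG and 95.3 to 101 CPM in the WT group (log2 fold change 0.07, SE 0.04, adjusted p = 0.43). Of 11 genes linked to SoxC factors, 8 were tested and 0 were called, beside 1.9% of all tested genes. Their median log2 fold change was -0.02, with 3 above 0 and 5 below. Nearest the threshold by edgeR's test, Elavl4 was higher in SG (log2 fold change 0.79, adjusted p = 0.0609). Map2 was lower (log2 fold change -0.60, adjusted p = 0.0645), and neither overlapped. Tead2, a direct SoxC target that encodes a partner of YAP, was at 140, 142 and 129 CPM in SG lines, against 127, 128 and 125 CPM in WT lines (log2 fold change 0.12, SE 0.04, adjusted p = 0.252). The guidance gene Sema3c was at 43.2 to 54.1 CPM in SG and 46.9 to 53.3 CPM in WT (adjusted p = 0.942, log2 fold change -0.02).

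Of 21 neural crest, glia and melanocyte genes linked to SOX10, 13 were tested, with a median log2 fold change of -0.06. Of these, 1 rose and 1 fell, beside 0.809% and 1.1% of all tested genes. Without overlap, 3 were higher and 4 lower in SG, beside 10% and 11.2%. Looked at after their values were seen, Pax3 (log2 fold change -1.53, adjusted p = 0.0502 by edgeR's test) and Ednrb (-1.80, 0.0878) were lower without overlap. Cdh19 was higher without overlap (2.32, 0.06), at 13 to 15 counts in SG and 1 to 5 counts in WT lines. Tfap2a, which encodes an AP-2 factor of neural crest and facial mesenchyme, was at 3.57, 2.71 and 3.22 CPM in SG lines, against 5.52, 6.89 and 5.2 CPM in WT lines (log2 fold change -0.89, SE 0.15, adjusted p = 0.0352). Ret, the receptor of GDNF family ligands, was at 3.24, 3.29 and 3.41 CPM in SG lines, against 1.26, 2.09 and 1.53 CPM in WT lines (log2 fold change 1.02, SE 0.19, adjusted p = 0.045). Dct, the melanocyte enzyme gene, had no count in any line, Tyr at most 1 count, and the list summed to 77.5 to 83.7 CPM in SG and 85.6 to 89.2 CPM in WT. Of 10 neural progenitor genes linked to SOX2, 6 were tested, with a median log2 fold change of -0.05. Of these, 0 rose and 1 fell, beside 0.809% and 1.1% of all tested genes. Notch1, a receptor that keeps progenitors undifferentiated and is expressed in many other cells, was at 18.7, 16.3 and 15.5 CPM in SG lines, against 24.8, 24.2 and 25.3 CPM in WT lines (log2 fold change -0.56, SE 0.07, adjusted p = 0.018). Of the 6 tested, 3 had a log2 fold change above 0 and 3 below. The list summed to 425 to 455 CPM in SG and 288 to 383 CPM in WT, most of it Nes. Looked at after its values were seen, Nes was at 419, 430 and 402 CPM in SG lines, against 280, 345 and 255 CPM in WT lines. It ran the other way from Notch1, without overlap (log2 fold change 0.51, SE 0.10, adjusted p = 0.0521). Pou5f1, Fgf4 and Lin28a of the 6 pluripotency partners had no count in any line, and 1 of the 6, Nanog, was tested, at 0.163 to 0.313 CPM in SG and 0.32 to 0.35 CPM in WT (adjusted p = 0.484), in a gene with near-identical copies that can share reads.

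**Figure D4:**
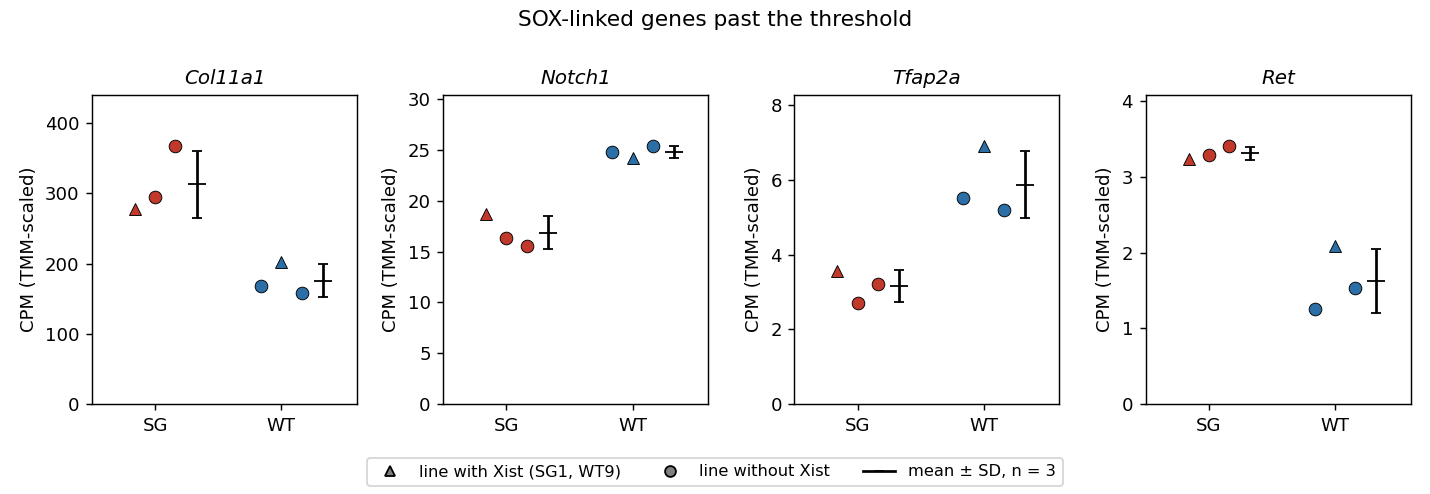
TMM-scaled CPM (linear axes from 0) of the 4 SOX-linked genes past the threshold in 3 SG lines (red) and 3 WT lines (blue), with triangles for the lines with Xist and bars for the mean ± SD. Col11a1 and Ret were higher, and Notch1 and Tfap2a lower, in every SG line than in every WT line.

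All 4 calls were lost without SG2, WT3 or WT11, where 0.0184%, 0.146% and 0.177% of all genes were called. Without SG2 the adjusted p was 0.1 for Col11a1, 0.103 for Notch1, 0.138 for Tfap2a and 0.171 for Ret, without WT3 0.113, 0.0963, 0.113 and 0.129, and without WT11 0.102, 0.087, 0.0903 and 0.163, in the same order. Tfap2a was also lost without SG3 (adjusted p = 0.0665) or WT9 (0.0527), Ret without SG1 (0.0569) or SG3 (0.0844), and Col11a1 with a robust prior (0.0611). Markers of other cell types summed to far less than the fibroblast markers. Yet Des and Krt18 were above Sox2, Sox5, Sox6, Sox8 and Sox10 in every line. The 7 skeletal muscle markers summed to 17.4 to 26.0 CPM in SG and 8.18 to 16.1 CPM in WT, nearly all of it Des, with Pax7 at 0 and Myod1 at most 1 count a line. The 2 tested, Des and Cdh15, were higher in every SG line than in every WT line, as were 10% of all tested genes. Their adjusted p was 0.146 and 0.117 by edgeR's test. Myf5 ran the other way, with 0, 4 and 0 counts in SG lines, against 8, 8 and 11 counts in WT lines. The 7 epithelial markers summed to 14.5 to 27.8 CPM in SG and 9.58 to 16.9 CPM in WT, mostly Krt18. Among them, the basal keratin gene Krt5 had 162 and 107 counts in SG1 and SG2 and 0 in SG3 and in the 3 WT lines. Its partner Krt14 was at 0.779, 1.5 and 0.308 CPM in SG lines, against 0.16, 0.0917 and 0.266 CPM in WT lines, without overlap (log2 fold change 2.33, SE 0.63, adjusted p = 0.122). The 7 macrophage markers summed to 26.3 to 60.1 CPM in SG and 11.5 to 32.2 CPM in WT, with SG3 highest and WT11 lowest. Of these 3 lists, 2 skeletal muscle, 4 epithelial and 7 macrophage members were tested and 0 were called, beside 1.9% of all tested genes. Krt5 did not pass the count filter, so it could not be called. The part of these cell types in the SOX values was not tested.

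The genes whose log2 CPM ran most like that of a SOX gene over the 6 lines are given as a description. For Sox4 they were Cystm1, Ajuba and Camsap1 (Pearson r 0.99 each), for Sox11 Ifi47, Stom and Tbc1d1 (r between 0.98 and 1.00), and for Sox12 Anxa8, Cox6c and Dnlz (r 1.00 each). Added after the values were seen, those most like Sox2 were Txndc9, Ptgir and Mtss1 (r 0.99 to 1.00). Mtss1 was at 4.04, 4.94 and 4.84 CPM in SG lines, against 9.18, 5.93 and 9.53 CPM in WT lines. It was chosen for its likeness to Sox2 over these same lines, so WT9 standing nearest to the SG lines is no separate observation. Those most like Sox5 were Gne, Tex2 and Echdc2 (r 0.98 to 1.00). By edgeR's test 0 of these 15 genes were called, beside 1.9% of all tested genes. Around the 9 genes, within 1 Mb on each side, 219 genes were tested and 2 were called (0.913%, beside 1.9% of all tested genes), both among the 53 near Sox10, namely Tmem184b, higher in SG, and Pdgfb, lower in SG.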

How the data were processed

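Gene-level read counts of 6 fibroblast lines (3 SG, 3 WT) were analysed. The deposited files hold unnormalised whole-number counts per Ensembl gene. Per the submitters' processing notes, Trimmomatic 0.36, STAR 2.5.2b, GRCm38 and featureCounts of Subread 1.5.2 were used, and DESeq2 was named. Not given in the sources used here are the annotation release, the strand setting, the handling of multimapping reads and any litter, day or run, so no batch term was fitted. The files hold 0 rows without a gene. GENCODE M21 gave symbols for 49056 of 49315 identifiers, and 91.4% of those found there had the same bounds.

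The whole table was fitted with edgeR 4.0.16 in R 4.3.3 after filterByExpr at its defaults (16068 genes kept), with TMM scaling, the quasi-likelihood test (2-sided, no covariate) and Benjamini-Hochberg adjustment over all genes tested, at 0.05. CPM were computed by edgeR with TMM-scaled library sizes. SE is the log2 fold change over the square root of F. Similarity used log2 CPM with a prior count of 2. The fit was tested on simulated data. Intervals cover this fit alone and floors counting error only.

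The 9 genes and all lists were chosen with earlier results of these data known. Named were all 9, other SOX genes that passed the filter, up to 4 called members of each list or else its 2 most abundant tested members, and the 3 genes most like each of the 3 most abundant SOX genes. Outside this rule, with values seen, came Col2a1, Acan, Col27a1, Nes, Zfp219, Pax1, Elavl4, Map2, Pax3, Ednrb and Cdh19. Single markers of cell types and the genes most like Sox2 and Sox5 also fell outside it. Alternatives were 3 scalings, no count filter, DESeq2 1.42.0, a robust prior, an Xist covariate, each line left out, and SG1 and WT9 left out together.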

Additional observations from a re-analysis of the deposited data

How the results depend on the processing

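The count of SOX genes past the threshold was 0 in the fit reported and with RLE, upper-quartile or unscaled library sizes or a robust prior. It was 2 (Sox5 higher, Sox2 lower) without a count filter and in DESeq2, and 1 (Sox2, lower) with Xist as a covariate and without SG1 and WT9. With each line left out it was 0 to 1 (0 higher, 0 to 1 lower). Genes called over the whole table, 306 (130 higher, 176 lower) in the fit reported, numbered 959 (421 higher, 538 lower) without a count filter, 952 (422 higher, 530 lower) in DESeq2 and 703 (315 higher, 388 lower) without SG1 and WT9. With each line left out they ran from 3 to 579 (2 to 234 higher, 1 to 345 lower).

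Of 126 alternative values for the 9 genes, 109 kept direction and side of the threshold, 7 passed it and 10 changed sign, all 10 in genes with an adjusted p above 0.8. With each line left out the log2 fold change ran from -0.0623 to 0.0943 for Sox11, -0.11 to 0.52 for Sox6, -0.17 to 0.47 for Sox8 and -0.0743 to 0.757 for Sox10. Among other SOX genes it ran from -0.0496 to 0.0948 for Sox13 and -0.14 to 0.36 for Sox30. Without SG1 and WT9 it was -0.029 for Sox8, -0.10 for Sox10 and -0.0595 for Sox13. The cause was not tested. Under the scalings the median log2 fold change of all genes lay between -0.005 and 0.0118. No paired analysis was possible because the groups share only the number 3 in their labels. Sox8 and Sox10 had 4 to 49 counts a line, so counting error adds to their spread between lines. Cartilage genes called lower numbered 0 in the fit reported and 1 in 5 of 14 alternatives.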
